A study of Mus musculus with 15 samples.

Results

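The livers of 6 mice given an estrogen alone were compared with those of 6 mice given bazedoxifene, gene by gene, over the 2545 genes of the deposited table. These 12 mice were taken by treatment from the 15 mice of the series. On estrogens alone, 3 mice received estradiol (E2) at 5 μg and 3 received conjugated estrogens (CE) at 2.5 mg, each per kg of body weight and day. On bazedoxifene-containing treatments, 3 received bazedoxifene (BZA) at a daily 3 mg per kg and 3 received CE with BZA at those same doses (CE+BZA). The remaining 3 mice received vehicle (Veh) and are given for context. All were female C57BL/6 mice that ate a diet with 45% of its energy from fat from 8 weeks of age, were ovariectomized at 10 weeks and were treated for 6 weeks, so that their own ovarian estrogen was absent in every group, Veh included. E2 and CE differed in dose and in form. Per the study methods, E2 was delivered by slow-release pellets and CE by osmotic minipumps, so their delivery differed too. CE+BZA against CE is the pair in which the estrogen was the same on both sides.

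Estrogens act on hepatocytes through estrogen receptor alpha, and also from outside the liver, by changing how the pituitary releases growth hormone. Bazedoxifene is a selective estrogen receptor modulator, a ligand that acts as an agonist in some tissues and as an antagonist in others, and it is combined with conjugated estrogens so that the uterus is not stimulated. Mouse liver is one of the most sexually dimorphic organs: continuous growth hormone release in females and pulsed release in males set, largely through the transcription factor STAT5b, which cytochrome P450 enzymes, sulfotransferases and urinary proteins a liver makes. Lists of female-biased and male-biased liver genes were therefore followed through the comparison.

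Each deposited value is a log2 value from which the gene's own median across the 15 mice had been taken, so a value of 0 is the middle mouse and values compare mice within a gene, not genes with one another. All 2545 genes differed from Veh by more than 1 on this scale in at least 1 treatment, so the table is a selection. The 6 hepatocyte markers looked for (0 in the table) could not be used to check the tissue. In 1045 genes (41.1%) at least 2 mice shared the lowest value, a floor. Read totals are not part of the table, so the depth is unknown. Some livers stood apart in markers of other cells. The liver of BZA mouse 3 had a mean of 2.83 over 16 adipocyte markers, against -0.44 to 0.51 in the other mice, and of 4.12 over 17 muscle, pancreas and gut markers. The liver of CE mouse 3 had a mean of 3.72 over 15 myeloid markers. BZA mouse 1 was highest over 10 cholangiocyte, stellate and endothelial markers (2.10, against -1.20 to 0.77). Calls that were lost without BZA mouse 3 are given with their value without it.

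With bazedoxifene, 17 of the 2545 genes (0.668%) differed at a fold change above 2 and a false discovery rate (FDR) under 0.05, 6 of them higher (0.236%) and 11 lower (0.432%), by limma with Benjamini-Hochberg adjustment over all genes. Of the 11 lower genes, 10 are named here. Those with known proteins were A1bg, Cyp3a44, Cyp3a41a, Cyp2c69, Socs2, Serpina12 and Fabp5. Among the 6 higher genes were Cyp4a12a, Tmem200b, Ccdc37 and Cml5. At an unadjusted p under 0.05, 230 genes (9.04%) were higher and 181 (7.11%) lower. The 6 mice of one pool lay beyond all 6 of the other in 6 of the 6 higher and 7 of the 11 lower genes, against 0.747% and 0.55% of all genes. The exact permutation test over the 924 splits of the 12 mice gave such a gene its smallest possible two-sided p, 0.00216, before adjustment. In each of the 17 genes, all 4 pairs of treatments differed by more than 1 in the same direction, as in 1.73% of all genes upward and 1.45% downward. The overlap, permutation and pair values use the same mice and values that chose the 17 genes. They describe those genes and are not separate support. The count rested on single mice: it was 7 without BZA mouse 3, 10 without CE mouse 6 and 37 without BZA mouse 4. Without both BZA mouse 3 and CE mouse 3, 6 genes passed, 5 of them among the 17: A1bg, Serpina12, Gm9847, Tmem200b and Ccdc37.

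**Figure D1:**
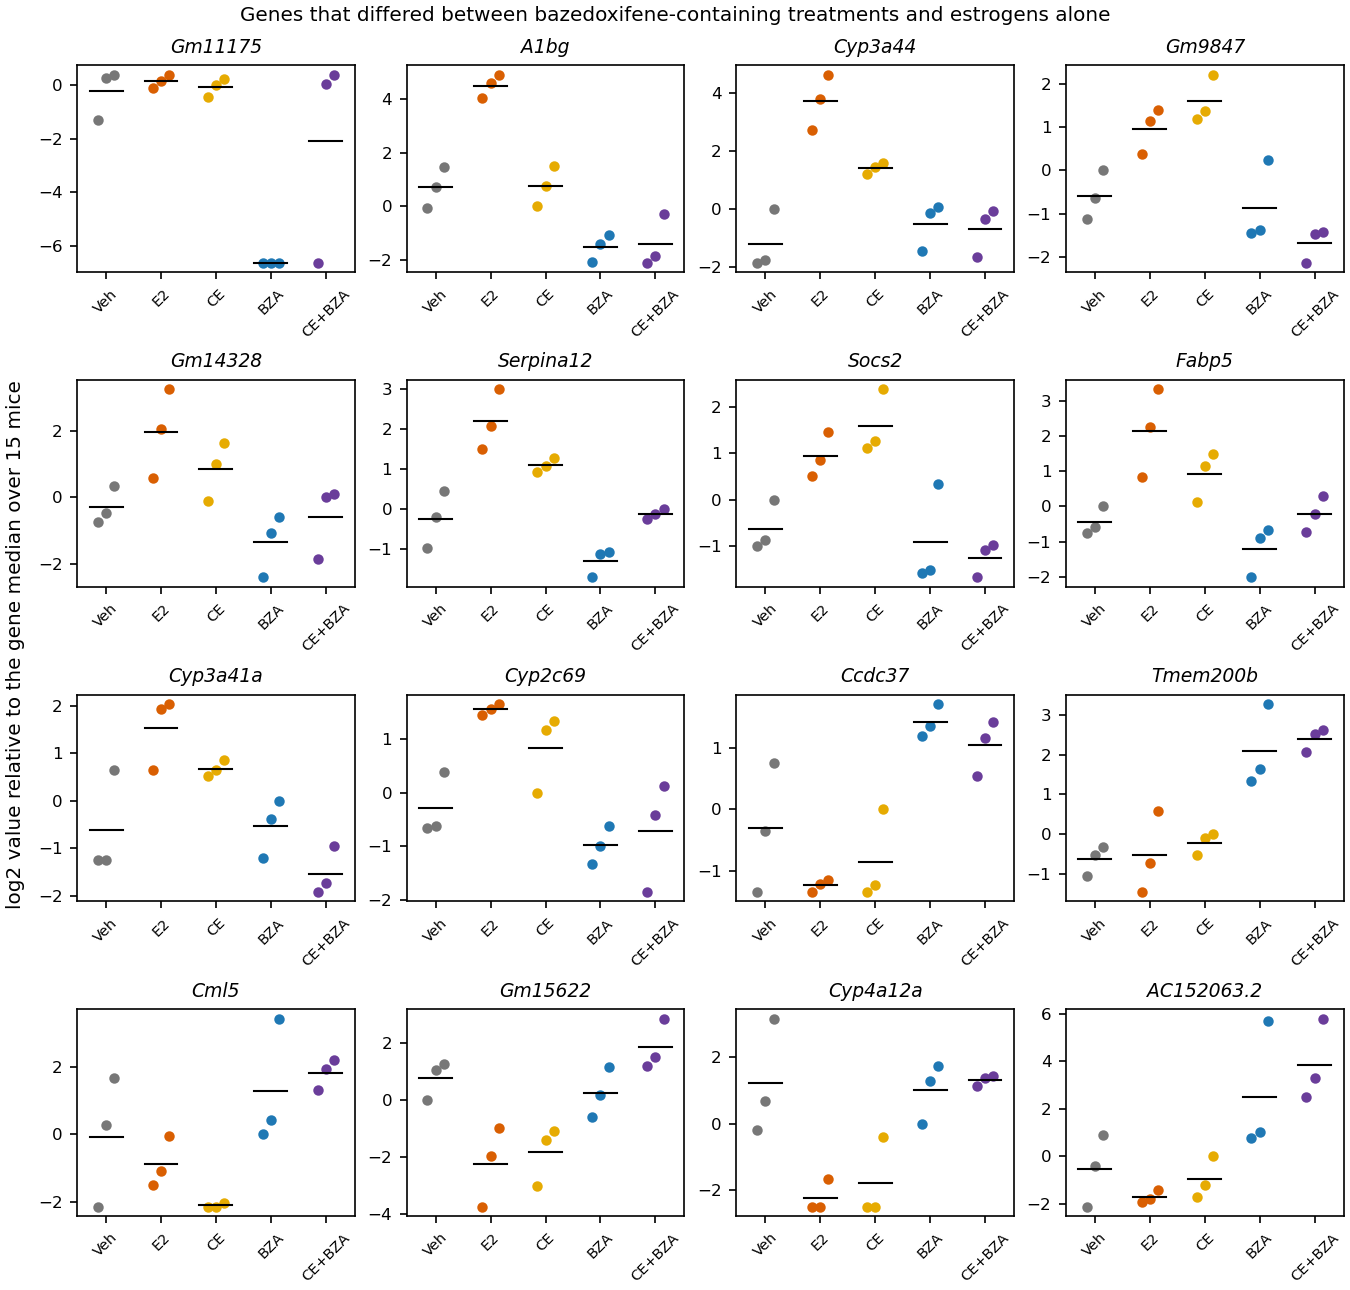
Deposited log2 value, with each gene's median across 15 mice set to 0, of the 16 named genes that passed, with 1 point per mouse and a line at the mean of the 3 mice of each group. The E2 and CE mice of A1bg lie between 0.00 and 4.91, and its BZA and CE+BZA mice between -2.10 and -0.28.

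The smallest adjusted p belonged to A1bg, which encodes a secreted glycoprotein of the immunoglobulin superfamily and is transcribed much more in female than in male mouse liver. The gene lies on the minus strand of chr15:60896859-60923012 (mm10) and overlaps 4930402D18Rik on the other strand. Its values were 4.59, 4.03 and 4.91 in the E2 mice and 1.51, 0.77 and 0.00 in the CE mice. The BZA mice had -1.42, -2.06 and -1.08, and the CE+BZA mice -2.10, -0.28 and -1.85. All 6 mice on estrogens alone were therefore above all 6 on bazedoxifene, with the E2 mice highest. The log2 difference, bazedoxifene-containing minus estrogens alone, was -4.10 (SE 0.42, FDR 7.54e-05 by limma), a 17.1-fold lower level. In Veh mice A1bg was at 0.73, 1.48 and -0.05, among the CE mice and above all 6 mice on bazedoxifene. A1bg was also the gene that passed inside a pool, being lower in CE than in E2 mice by a log2 difference of -3.75 (SE 0.60, FDR 0.0241).

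The promoter of A1bg, from 250 bases before to 50 after the start of the RefSeq gene (GRCm38.p6, minus strand, chr15:60921221-60921520), is shown because this gene had the smallest adjusted p. Capitals mark its match to TTCNNNGAA, the letters that STAT5 binds, which begins at position -84 from the start:
A1bg: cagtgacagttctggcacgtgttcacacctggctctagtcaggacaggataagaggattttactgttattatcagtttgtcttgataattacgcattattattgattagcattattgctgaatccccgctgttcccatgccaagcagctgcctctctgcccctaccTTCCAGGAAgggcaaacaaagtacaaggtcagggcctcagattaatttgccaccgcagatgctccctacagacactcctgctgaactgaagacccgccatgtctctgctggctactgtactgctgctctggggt
These letters, which read the same on both strands, are in 8.3% of the 32851 promoters of the same length. Of the 8 promoters of genes that passed and had an entry, those of A1bg, Cyp3a44, Serpina12, Tmem200b, Ccdc37 (Cfap100), Cyp2c69, Cyp3a41a and Cml5 (Nat8f5), the A1bg promoter was the 1 with a match. The estrogen response element, GGTCA and TGACC with 3 bases between them and also the same on both strands, was in 0 of the 8 and in 0.07% of all promoters. Its first part alone, GGTCA on either strand, was in the promoters of A1bg, Cyp3a44, Serpina12, Tmem200b, Cyp2c69 and Cml5. It was not in those of Ccdc37 and Cyp3a41a, and it was in 40.5% of all promoters. A match is a run of letters and was not tested as a binding site. The 2 sources differ on the start of A1bg: by the gene position given above it is at 60923012, so the window shown lies inside the gene.

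The cytochrome P450 genes that passed as lower were 3 enzymes known from female liver. Cyp3a44, a CYP3A steroid and drug hydroxylase (chr5:145773983-145805874, minus strand), was at 3.76, 2.72 and 4.62 in E2 and 1.20, 1.57 and 1.42 in CE mice. The BZA mice had -1.46, -0.16 and 0.05, and the CE+BZA mice -0.36, -1.65 and -0.10. The pools did not overlap, and the E2 mice were again the highest. The difference was -3.16 (SE 0.46, FDR 0.00376 by limma). Its neighbour Cyp3a41a (chr5:145694049-145720136, minus strand) differed by -2.15 (SE 0.42, FDR 0.0182), with 0.52 to 2.04 (median 0.76) on estrogens alone and -1.92 to 0.00 (median -1.08) on bazedoxifene, and did not pass without BZA mouse 3 (-1.98, FDR 0.0808). Cyp2c69, of the CYP2C family (chr19:39842814-39886799), differed by -2.05 (SE 0.40, FDR 0.0182), and by -2.04 without BZA mouse 3 (FDR 0.0698). Its pools overlapped in a single pair of mice, CE mouse 3 at 0.00 and CE+BZA mouse 1 at 0.12.

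Cyp3a44 and Cyp3a41a are close relatives, and reads that fit both could have been counted for either. Their promoters (RefSeq, GRCm38.p6, minus strand, chr5:145805825-145806124 and chr5:145720087-145720386) are shown to let that closeness be seen, with capitals at the bases that differ between them:
Cyp3a44: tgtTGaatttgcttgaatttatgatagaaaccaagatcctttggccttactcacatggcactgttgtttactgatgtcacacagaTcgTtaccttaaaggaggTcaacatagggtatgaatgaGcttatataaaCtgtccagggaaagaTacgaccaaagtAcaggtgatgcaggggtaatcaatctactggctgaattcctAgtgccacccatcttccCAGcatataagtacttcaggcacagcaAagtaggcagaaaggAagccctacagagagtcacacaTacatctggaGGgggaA
Cyp3a41a: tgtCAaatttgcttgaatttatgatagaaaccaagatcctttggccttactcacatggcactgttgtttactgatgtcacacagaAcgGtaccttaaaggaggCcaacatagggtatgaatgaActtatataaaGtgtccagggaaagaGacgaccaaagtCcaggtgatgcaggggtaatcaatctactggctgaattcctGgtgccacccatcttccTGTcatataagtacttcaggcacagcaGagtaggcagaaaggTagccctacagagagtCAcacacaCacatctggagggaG
They were identical at 281 of 302 aligned columns (93.0%). The 2 genes moved in the same direction and had these differences between the estrogens: CE minus E2 was -2.30 for Cyp3a44 (FDR 0.387) and -0.86 for Cyp3a41a (FDR 0.677) on the log2 scale, and neither passed.

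Across the female-biased list, 28 of 49 genes were in the table. At an unadjusted p under 0.05, 11 were lower with bazedoxifene (39.3%, against 7.11% of all genes) and 1 was higher (3.57%, against 9.04%). The median difference was -0.87, against 0.09 over all genes, and 23 of the 28 were below 0, against 45.5% of all genes. Beside those that passed, the lower members were Cux2 (-1.80), a repressor of male-biased genes in female liver, and Cyp2a4 (-1.74), a steroid 15α-hydroxylase. Nipal1 (-1.71), a magnesium transporter, Cyp17a1 (-1.10), an enzyme of androgen synthesis, Cyp2g1 (-1.04) and the peroxisomal fatty acid transporter Abcd2 (-0.80) were the others named. Cyp2b13 went the other way by 1.18, with -2.89 to -0.01 on estrogens alone and -0.16 to 0.76 on bazedoxifene. The mean over the list was 0.55 to 0.74 for E2, -0.57 to 0.39 for CE, -0.72 to 0.06 for BZA and -1.11 to -0.83 for CE+BZA. The pools overlapped, with CE mouse 3 (-0.57) below BZA mouse 1 (0.06) and BZA mouse 4 (-0.49). Relative to Veh, the median over the list was -0.19 with estrogens alone and -0.89 with bazedoxifene, with members on both sides of Veh.

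**Figure D2:**
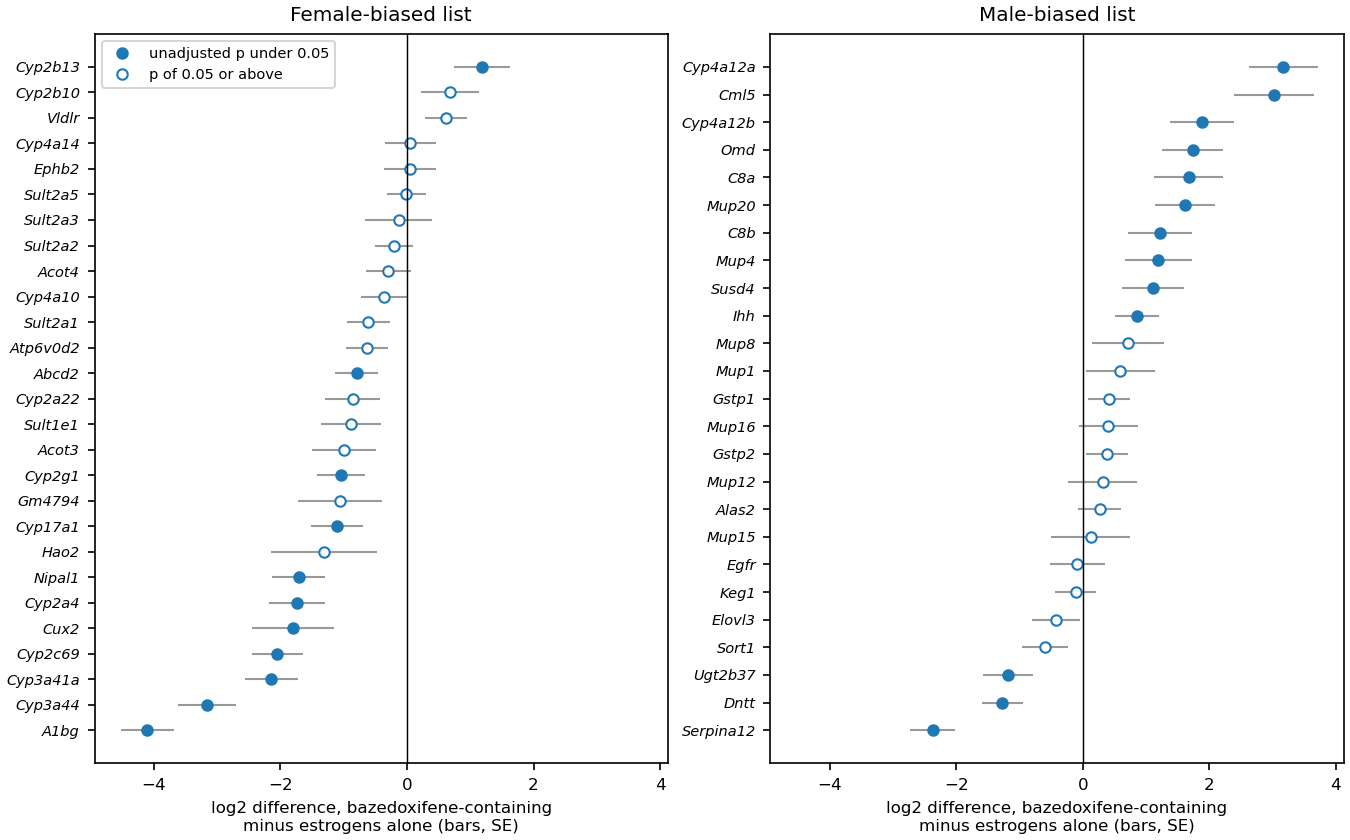
Log2 difference, bazedoxifene-containing minus estrogens alone (bars, SE of the limma fit), for 27 genes of the female-biased list and 25 of the male-biased list, filled where the unadjusted p was under 0.05. Most female-biased genes lie left of 0 (median -0.87 over all 28), and 18 of the 25 male-biased genes lie right of it (median 0.42).

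The male-biased list went mostly the other way. Of 64 genes, 25 were in the table, 10 of them higher at an unadjusted p under 0.05 (40%, against 9.04% of all genes) and 3 lower (12%, against 7.11%), with a median of 0.42 and 18 of 25 above 0 (54.4% of all genes were). Cyp4a12a, the fatty acid ω-hydroxylase of male liver (chr4:115299046-115332815), was at its lowest value, -2.499, in 2 E2 and 2 CE mice, and the other estrogen mice had -1.68 and -0.40. BZA mice were at 1.73, 0.00 and 1.27 and CE+BZA mice at 1.13, 1.43 and 1.36, so the pools did not overlap. The difference was 3.17 (SE 0.55, FDR 0.00696 by limma) with 4 of the estrogen mice at the floor, where values have no order. Without BZA mouse 3 it was 2.98 and did not pass (FDR 0.0713). Its near-identical neighbour Cyp4a12b, which can share its reads, differed by 1.88 (FDR 0.115), also with 4 of the 6 estrogen mice at its lowest value.

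Cml5 (Nat8f5), an N-acetyltransferase-like gene, was higher by 3.02 (SE 0.63, FDR 0.026 by limma), with -2.13 to -0.04 on estrogens alone and 0.00 to 3.42 on bazedoxifene. The pools touched closely, and the call held in 5 of the 15 fits that left out 1 mouse, with 2.49 and an FDR of 0.1003 without BZA mouse 3. The major urinary proteins Mup20 (1.61) and Mup4 (1.20), which carry pheromones and share reads with their copies, the complement genes C8a (1.67) and C8b (1.22) and the matrix protein gene Omd (1.74) were higher at the unadjusted p. Susd4 (1.11), a complement regulator, and Ihh (0.86), a hedgehog ligand, were higher as well. The 3 members that were lower were Serpina12, Dntt (-1.27), a DNA polymerase of lymphocytes, and Ugt2b37 (-1.18), a glucuronosyltransferase. By mouse the mean over the male-biased list was 0.42 to 0.67 in CE+BZA, -0.51 to 0.87 in BZA, -0.43 to 0.24 in E2 and -0.49 to 0.02 in CE mice. BZA mouse 1, at -0.51, was the lowest of all 15. In the pair with the same estrogen, CE+BZA minus CE, the median difference was 0.80 over the male-biased and -0.89 over the female-biased list, against 0 over all genes. For BZA minus CE these medians were smaller, 0.24 and -0.19, against 0 over all genes. For BZA minus E2 they were 0.44 and -0.69, against 0.14 over all genes. For CE+BZA minus E2 they were 0.74 and -1.56, against 0.17.

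Growth hormone signalling was represented by 8 of 24 listed genes, of which 2 were lower (25%, against 7.11% of all genes) and 1 higher (12.5%, against 9.04%) at an unadjusted p under 0.05. As a list it was not lower: 5 of the 8 were above 0 (against 54.4% of all genes), with a median of 0.20. For CE+BZA minus CE the median was -0.04. Socs2, the STAT5 target that shuts off signalling from the growth hormone receptor (chr10:95385362-95417180), was at 0.51, 1.46 and 0.86 in E2 and 2.38, 1.27 and 1.11 in CE mice. With bazedoxifene it was at -1.59, 0.34 and -1.52 (BZA) and at -1.67, -1.09 and -0.99 (CE+BZA). The pools did not overlap, with BZA mouse 1 closest to the estrogen mice. The difference was -2.35 (SE 0.41, FDR 0.00696 by limma), and without BZA mouse 3 the FDR was 0.0532. Cux2, which growth hormone induces in female liver, was at 0.00 to 1.64 (median 0.54) on estrogens alone and -3.25 to 1.57 (median -1.79) on bazedoxifene, with CE+BZA mouse 3 at the top and an FDR of 0.2. Igfbp5, an IGF-binding protein, differed by 1.06 (FDR 0.292).

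Steroid enzymes, some of which are on the lists above, were lower where they differed. Of 69 enzymes that make, oxidise or conjugate steroids and bile acids, 14 were in the table, 5 were lower at an unadjusted p under 0.05 (35.7%, against 7.11% of all genes) and 0 were higher (against 9.04%), with a median of -0.72. That median was -0.63 and -1.29 in the pairs with E2 and -0.20 and -0.25 in those with CE. The 5 were Hsd17b6 (-1.41), a hydroxysteroid dehydrogenase, the glucuronosyltransferases Ugt1a5 (-1.32), Ugt1a2 (-1.23) and Ugt2b37, and Cyp17a1. The Ugt1a genes share all but their first exon, so their counts may not be separate. Over all 30 cytochrome P450 genes, 7 were lower (23.3%) and 3 higher (10%) with a median of 0.03, close to the 0.09 of all genes. Cyp3a59, not on the sex-biased lists, was one of the lower (-1.23, FDR 0.136). Of 19 genes of estrogen receptor signalling in the table, 2 were higher (Fos and Ihh) and 1 lower (Serpina9, -1.12) at the unadjusted p. These shares, 10.5% and 5.26%, were close to the 9.04% and 7.11% of all genes. By direction, 15 of the 19 were above 0 (against 54.4% of all genes), with a median of 0.39.

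Fatty acid and lipid genes numbered 38 in the table, of which 6 were lower and 3 higher at an unadjusted p under 0.05 (15.8% and 7.89%, against 7.11% and 9.04% of all genes), with a median of -0.24. Fabp5, a carrier of fatty acids inside the cell (chr3:10012548-10016607), was at 0.82, 3.32 and 2.26 in E2 and 0.12, 1.48 and 1.15 in CE mice. The BZA mice had -2.01, -0.67 and -0.91, and the CE+BZA mice -0.21, 0.30 and -0.73. The pools overlapped between CE mouse 7 and CE+BZA mouse 2. The difference was -2.23 (SE 0.44, FDR 0.0195 by limma), and the call held in 9 of 15 fits that left out 1 mouse, with -2.03 and an FDR of 0.0842 without BZA mouse 3. Enho (-1.39), which encodes the peptide adropin, Fgf21 (-1.26), a liver hormone of fasting, Pla2g4f (-1.18), a phospholipase, Fabp2 (-0.80) and Abcd2 were the other lower genes. Higher were Plin4 (1.70), a coat protein of lipid droplets, Mogat2 (1.29), an enzyme of triglyceride synthesis, and G0s2 (0.82), an inhibitor of lipolysis. Plin4 was at -2.18 to -0.52 (median -1.58) on estrogens alone, -1.29 to 1.30 (median 0.23) on bazedoxifene and 0.54 to 0.83 in Veh mice. Pparg, a regulator of fat storage that the study followed, was at -0.58 to 0.25 on estrogens alone and -0.70 to 0.17 on bazedoxifene, a difference of 0.04 (SE 0.31, FDR 0.958). The study compared it with vehicle, and the Veh mice, at 0.61 to 1.18, lay above every mouse of both pools. All 6 cholesterol genes in the table were below 0 (median -0.57, where 45.5% of all genes were below 0), and 1 of them, Fdps (-1.07), of the mevalonate pathway, was lower at the unadjusted p. The mean over these 6 was highest in E2 mice (0.92), lowest in BZA mice (-0.35) and 0.04 in both CE and CE+BZA mice.

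Serpina12 encodes vaspin, a serine protease inhibitor secreted by fat, skin and liver (chr12:104028769-104044443, minus strand). It was at 2.07, 3.00 and 1.51 in E2 and 1.08, 0.93 and 1.27 in CE mice. In BZA mice it was at -1.72, -1.09 and -1.12 and in CE+BZA mice at -0.27, 0.00 and -0.13. The 4 treatments kept apart from one another in these mice, with BZA lowest and E2 highest. The difference was -2.37 (SE 0.36, FDR 0.00376 by limma), and it passed in 15 of the 15 fits that left out 1 mouse.

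Tmem200b, a gene for a membrane protein (chr4:131921771-131923140), was the protein-coding gene with the smallest adjusted p among those higher with bazedoxifene. It was at 0.58, -0.72 and -1.44 in E2 and -0.52, -0.09 and 0.00 in CE mice. With bazedoxifene, BZA mice had 3.27, 1.64 and 1.34 and CE+BZA mice 2.07, 2.51 and 2.60. The pools were well apart, and the Veh mice (-1.03, -0.51 and -0.32) lay with the estrogens. The difference was 2.61 (SE 0.42, FDR 0.00472 by limma). Ccdc37 (Cfap100), a gene of the ciliary axoneme (chr6:90403479-90428797, overlapping Zxdc on the other strand), was at -1.34 to 0.00 on estrogens alone and 0.54 to 1.72 on bazedoxifene, a difference of 2.28 (SE 0.39, FDR 0.00696). Both passed in 15 of 15 fits that left out 1 mouse.

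The remaining genes that passed were noncoding, pseudogenes or without a position. Gm15622, antisense to Bhmt (chr13:93625382-93628633), was higher by 3.09 (SE 0.53, FDR 0.00696 by limma), with -3.74 to -0.98 on estrogens alone and -0.59 to 2.87 on bazedoxifene, and by 2.87 without BZA mouse 3 (FDR 0.0676). AC152063.2 was higher by 4.51 (SE 0.79, FDR 0.00696), led by BZA mouse 3 (5.70) and CE+BZA mouse 3 (5.79), with 0.78 to 3.28 in the other 4. Gm11175, antisense to Jund (chr8:70699162-70700080), was at the same lowest value, -6.61, in the 3 BZA mice and in CE+BZA mouse 3, while the other CE+BZA mice (0.02 and 0.35) lay among the estrogen mice (-0.43 to 0.38). Its difference of -4.38 (SE 0.86, FDR 0.0182) is therefore set by which mice were at the floor, and its FDR was 0.116 without BZA mouse 3. The processed pseudogenes Gm9847 (chr12:14494561-14495159; -2.56, SE 0.39, FDR 0.00389) and Gm14328 (chr18:74303524-74303931; -2.38, SE 0.52, FDR 0.0459) were lower, the second with -2.12 and an FDR of 0.145 without BZA mouse 3. Reads of a pseudogene can come from its parent gene, and those of an antisense gene from its partner. Per the labels the library kit was a stranded one, and whether the counting used it is not given in the sources used here.

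**Figure D3:**
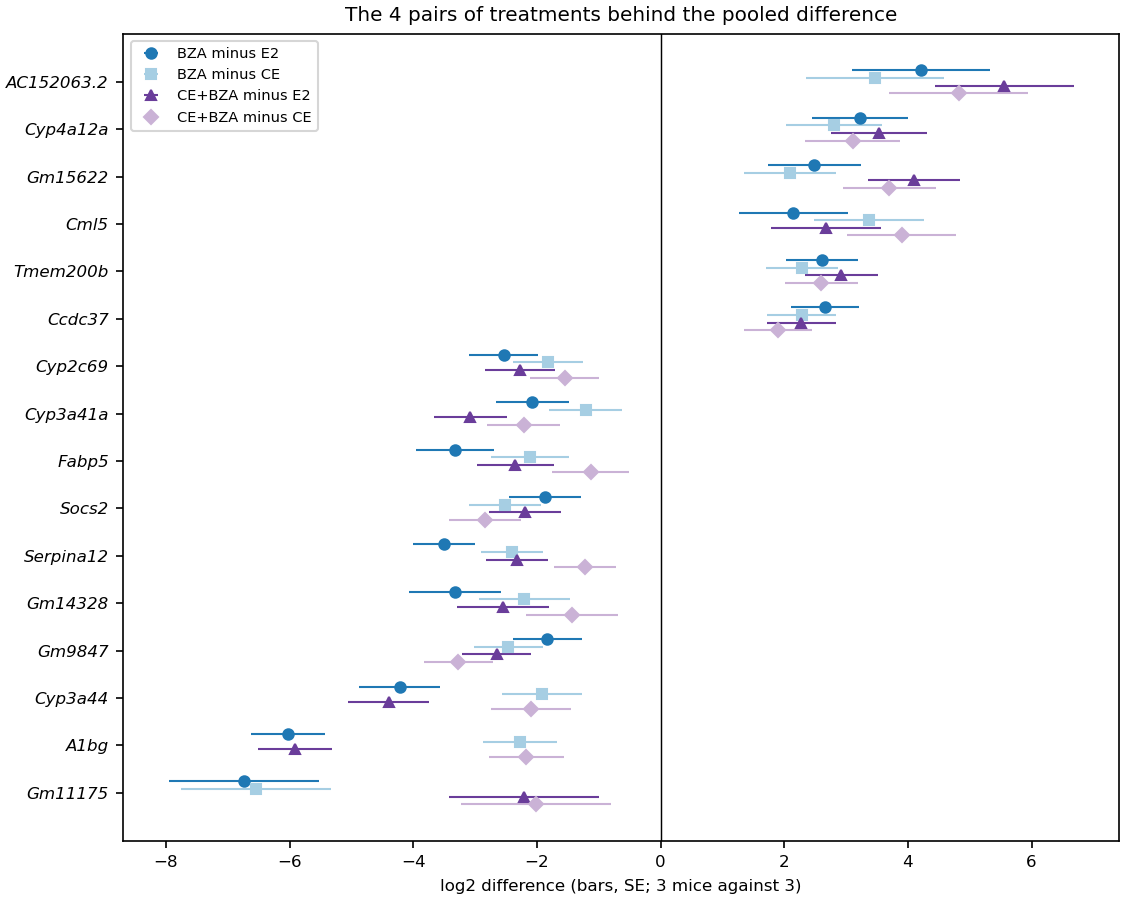
Log2 difference with SE for each of the 4 pairs of treatments, bazedoxifene-containing minus estrogen, in the 16 named genes. All 4 pairs lie on the same side of 0 in every gene, and the pairs with E2 are the larger ones in A1bg (-6.03 and -5.92, against -2.28 and -2.17 with CE).

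Pair by pair, with 3 mice against 3, few genes passed. By limma, 7 genes (0.275%) were called for BZA minus E2, all lower, and 4 (0.157%) for CE+BZA minus E2, with 286 (11.2%) and 337 (13.2%) at an unadjusted p under 0.05. For BZA minus CE 0 genes were called, with 290 (11.4%) at the unadjusted p. For CE+BZA minus CE the 1 gene (0.0393%) was Gm9847, lower by a log2 difference of -3.28 (SE 0.56, FDR 0.0499), with 369 (14.5%) at the unadjusted p. A1bg passed in both pairs with E2 (FDR 4.29e-05 against BZA and 5.6e-05 against CE+BZA) and in neither with CE (FDR 0.277 and 0.157). Cyp3a44 did the same, with -4.22 (FDR 0.00514) and -4.40 (FDR 0.00463) against E2, and -1.92 (FDR 0.373) and -2.10 (FDR 0.203) against CE. The pair that holds the estrogen constant gave -2.84 for Socs2 (SE 0.58, FDR 0.0769) and 3.11 for Cyp4a12a (SE 0.77, FDR 0.145), sizes at least those of the pooled difference for Socs2 and slightly under it for Cyp4a12a.

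Within the pools, CE+BZA minus BZA called 0 genes by limma, with 223 (8.76%) at an unadjusted p under 0.05, and CE minus E2 called 1 (0.0393%), A1bg, with 232 (9.12%). A direct test asked whether CE+BZA minus CE differed from BZA minus E2, which replaces the estrogen rather than adding to it. It passed in 2 genes (0.0786%, with 8.68% at the unadjusted p), Heatr8 and AC123644.1, neither of which was among the 17. For A1bg, where the E2 and CE mice were so far apart, this difference of the differences was 3.86 (SE 0.85) and did not pass (FDR 0.125).

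**Figure D4:**
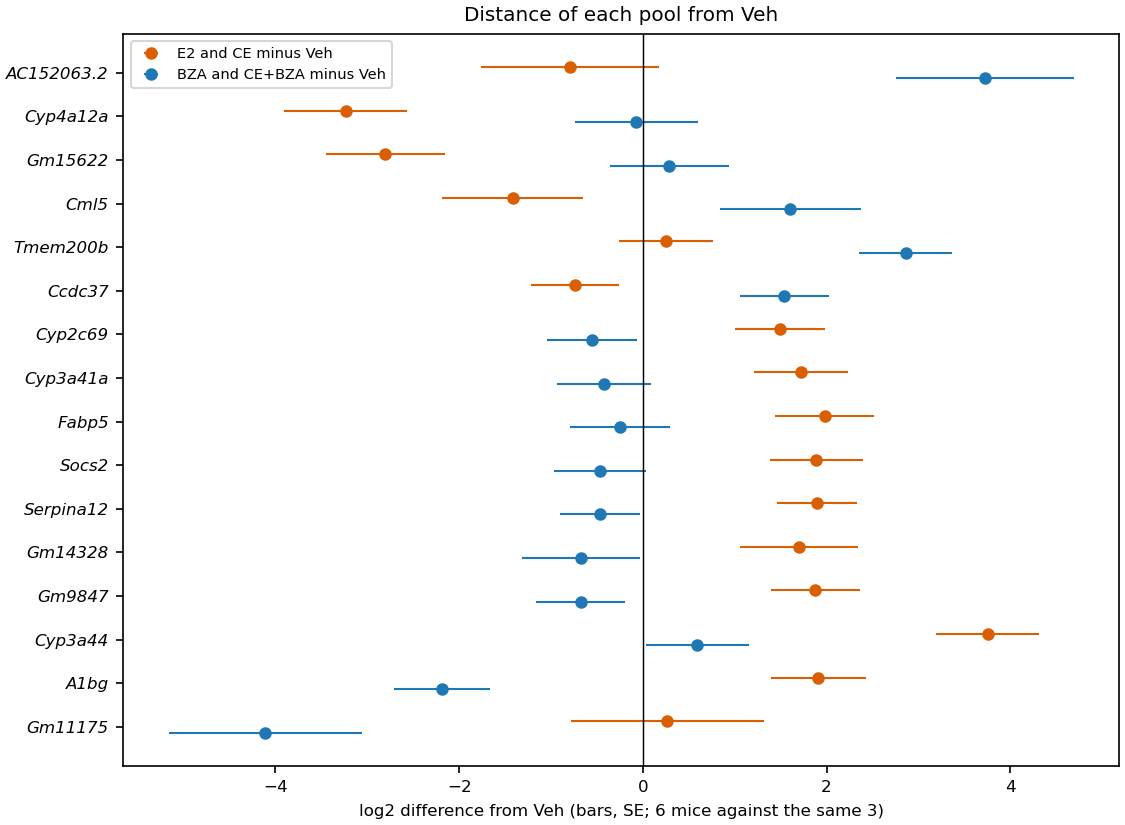
Log2 difference from the 3 Veh mice, with SE, of the 6 mice on estrogens alone and the 6 on bazedoxifene, for the 16 named genes. Cyp3a44 departs from Veh with the estrogens (3.75, against 0.59), Tmem200b with bazedoxifene (2.86, against 0.25), and A1bg in opposite directions (1.91 and -2.19, with the CE mean at 0.76 and the Veh mean at 0.72).

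The pools were also set beside the same 3 Veh mice, against which 5 genes (0.196%) were called with the estrogens and 8 (0.314%) with bazedoxifene by limma. All genes of the table differed from Veh by more than 1 in at least 1 treatment, so these counts come from a selected set. Among the named genes that passed, the smallest pool difference was -2.05 (Cyp2c69). In each, at least 1 pool therefore had to lie more than 1 from Veh. The shares of all genes given below carry no such condition. Of the 11 genes lower with bazedoxifene, 8 differed from Veh by more than 1 with the estrogens and by less than 1 with bazedoxifene (7.66% of all genes did so and were lower) and 2 the reverse (6.92%), while A1bg departed by more than 1 on both sides in opposite directions. Its estrogen side was set by E2, with means of 4.51 in E2, 0.76 in CE and 0.72 in Veh mice. Cyp3a44 was above Veh by 3.75 with the estrogens (SE 0.56, FDR 0.00476 by limma) and by 0.59 with bazedoxifene (SE 0.56, FDR 0.451). Socs2 (1.89 and -0.46), Fabp5 (1.98 and -0.25) and Serpina12 (1.90 and -0.47) had the same layout without passing against Veh. Of the 6 higher genes, 3 departed from Veh by more than 1 with bazedoxifene alone (12.6% of all genes), 2 with the estrogens alone (7.9%) and 1, Cml5, in opposite directions. Tmem200b was above Veh by 2.86 with bazedoxifene (SE 0.51, FDR 0.0242) and by 0.25 with the estrogens (FDR 0.761). Cyp4a12a was below Veh by a log2 difference of -3.24 with the estrogens (SE 0.67, FDR 0.0585) and -0.07 with bazedoxifene. In Gsta1, a glutathione S-transferase, both pools were below Veh, by -2.82 with the estrogens (FDR 0.0048) and -1.70 with bazedoxifene (FDR 0.1), which left it 1.12 higher with bazedoxifene at the unadjusted p.

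Immediate early and stress genes were more often higher than genes in general, with 7 of 21 in the table higher at an unadjusted p under 0.05 (33.3%, against 9.04%) and 1 lower. None passed the adjusted threshold by limma. The median of the list was 0.81 for BZA minus E2 and 0.72 for CE+BZA minus E2, against 0.22 for BZA minus CE and 0.04 for CE+BZA minus CE. The 7 were the phosphatase gene Dusp1 (1.82), the cytokine gene Gdf15 (2.05), Ddit4 (1.30), an inhibitor of mTOR, the heat shock genes Hspa1a (1.34) and Hspa1b (1.31), Fos (1.22) and Gadd45g (1.02). Hspa1a and Hspa1b are near-identical copies. Ddit4 was at -0.68 to -0.14 (median -0.44) on estrogens alone and 0.19 to 2.504 (median 0.62) on bazedoxifene, without overlap, and Gdf15 was high in BZA mouse 3 (2.87) and CE+BZA mice 2 and 3 (2.56 and 3.60) and at -0.48 to 0.44 in the other 3. Clock genes included 3 higher of 11, Ccrn4l (1.30), Tsc22d3 (0.94) and Usp2 (0.90), and 1 lower, Dbp (-0.82), shares of 27.3% and 9.09% against 9.04% and 7.11% of all genes.

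Complement and coagulation genes had 3 of 10 higher, C8a, C8b and Cfd (1.86), and 1 lower, F11 (-0.74), shares of 30% and 10% against 9.04% and 7.11% of all genes. The median of the list was 0.91 for BZA minus E2 and 0.52 for CE+BZA minus E2. It was 0.12 for BZA minus CE and 0.19 for CE+BZA minus CE. Cfd differed by 1.07 without BZA mouse 3 (FDR 0.399). C8a was at -2.04 to 2.06 (median -0.11) on estrogens alone and -0.51 to 2.17 (median 1.74) on bazedoxifene, with BZA mouse 1 lowest among the latter. Solute carriers had 7 of 60 higher and 1 lower (11.7% and 1.67%, against 9.04% and 7.11%), led by the phosphate transporter Slc34a2 (2.71, FDR 0.0507) and the mitochondrial carrier Slc25a29 (1.60, FDR 0.0741). Extracellular matrix genes had 4 of 32 higher, with Col27a1 (1.84) the largest, and 1 lower, Adamts6 (-1.47). Inflammation and interferon genes had 2 of 26 higher, Cxcl1 (1.27) and Il1r1 (0.86), and 0 lower, cell cycle genes 1 of 11 in each direction (Rrm2, 1.04, and Ect2, -0.77), and glutathione S-transferases 1 of 6 higher. The shares of the matrix, inflammation and cell cycle lists at that unadjusted p were close to those of all genes. By direction, 9 of the 11 cell cycle genes were below 0 (against 45.5% of all genes), with a median of -0.38. Above 0 were 19 of the 32 matrix and 12 of the 26 inflammation genes (against 54.4%).

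Markers of other cells were counted over the same comparison. Of 16 adipocyte markers, 3 were higher at an unadjusted p under 0.05 (18.8%, against 9.04% of all genes), Cfd, Plin4 and Sncg (1.27), and 15 of the 16 were above 0 (against 54.4%). Their median was 1.42 for BZA minus E2 and 1.38 for BZA minus CE, but 0 for CE+BZA minus either estrogen. By mouse, the mean over these markers was -0.08 to 2.83 in BZA and -0.19 to 0.31 in CE+BZA mice. Cfd, the complement protease adipsin made by adipocytes, was at -3.00 to 0.53 (median -1.15) on estrogens alone and -0.88 to 4.59 (median 0.06) on bazedoxifene, the highest being BZA mouse 3, and at 3.15 to 4.89 in Veh mice. In muscle, pancreas and gut markers 2 of 17 were higher: the pancreatic genes Ctrb1 (2.10) and Reg1 (1.76) were at 7.02 and 4.16 in BZA mouse 3, at 4.64 and 5.41 in BZA mouse 1, at 0.98 each in CE+BZA mouse 1 and at or within 0.08 of 0 in the other 12. Of 15 myeloid markers 1 was lower, the neutrophil gene Camp (-1.84), which was at 6.98 in CE mouse 3. Erythroid (0 of 13), lymphoid (1 of 13 higher, Tbx21, 0.96) and cholangiocyte, stellate and endothelial markers (0 of 10) had few or no members at that p. By direction alone, 11 of 13 erythroid, 10 of 13 lymphoid and 12 of 15 myeloid markers were below 0 (against 45.5% of all genes). Their medians were -0.34, -0.14 and -0.82. In the order BZA minus E2, CE+BZA minus E2, BZA minus CE and CE+BZA minus CE, pair medians were 0.59, -0.61, -0.14 and -1.30 (erythroid). For lymphoid markers they were 0.41, -0.01, -0.38 and -0.73, and for myeloid markers 0.19, 0.12, -1.40 and -1.62. CE mouse 3 was the highest mouse over the myeloid (3.72) and erythroid (1.70) markers. Above 0 were 6 of 10 cholangiocyte, stellate and endothelial markers (median 0.77) and 14 of 17 muscle, pancreas and gut markers (median 0.93). The muscle, pancreas and gut median was 1.77 for BZA minus either estrogen and 0 for CE+BZA minus either. The mean over these markers was 0.13 to 4.12 in BZA and -0.05 to 0.25 in CE+BZA mice. The part of these cells in the differences was not tested, and in whole liver fewer cells of a type and less RNA per cell cannot be told apart. Without both BZA mouse 3 and CE mouse 3, A1bg differed by -4.31 (FDR 0.00479) and Tmem200b by 2.36 (FDR 0.039), while Cyp3a44 (-2.92, FDR 0.0534), Cyp4a12a (2.81, FDR 0.105) and AC152063.2 (3.66, FDR 0.0881) kept their direction and did not pass.

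**Figure D5:**
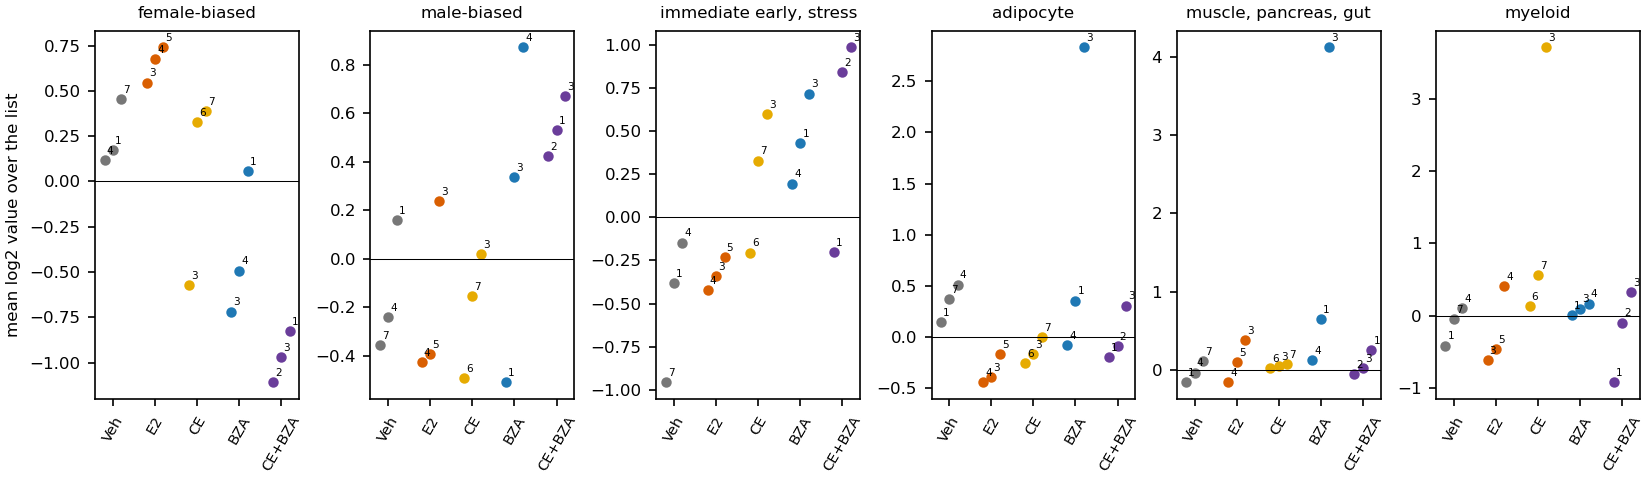
Mean log2 value over the genes of 6 lists in each of the 15 mice, by group, with the replicate number beside each point and a different vertical scale in each panel. The 3 CE+BZA mice are the lowest on the female-biased list (-1.11 to -0.83), BZA mouse 3 stands apart on the adipocyte (2.83) and muscle, pancreas and gut (4.12) lists, and CE mouse 3 on the myeloid list (3.72).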

How the data were processed

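Liver RNA-seq of 15 mice, 3 per treatment, was used as deposited. The authors deposited log2 values: per the labels and the methods, reads were processed with CASAVA 1.8.2, mapped with TopHat to mm10 (hg19 is listed too), counted per gene in StrandNGS 3.1 and normalized by DESeq, and set relative to each gene's median, which was 0 in all 2545 genes. The filter that chose the genes is not given in the sources used here, and each treatment had 8 animals of which 3 are in the table. No pseudocount or filter was added, and 0 columns were unmatched. Each mouse is a separate animal, and 0 pairs had identical values. Depth in reads is not in the table, so no counting error could be given.

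A 5-group model was fitted to all 15 mice with limma 3.58.1 (lmFit, contrasts.fit, eBayes) in R 4.3.3, with Benjamini-Hochberg adjustment across the 2545 genes of each contrast. The main contrast was the mean of BZA and CE+BZA minus that of E2 and CE, called where the log2 difference exceeded 1 in size (a fold above 2) with an FDR under 0.05. Exact permutation tests over 924 splits, two-sided and unadjusted, list counts, motifs and alignments were made with Python 3.11.15, Biopython 1.88, pandas 2.3.3 and numpy 2.4.6, and plots with matplotlib 3.10.9. On simulated data for this contrast, 0, 151 and 186 of 200 changed genes among 2545 were recovered at log2 shifts of 1, 2 and 3, with 0, 5 and 7 other calls, and 0 genes were called with no shift. With this rule a true difference of 2-fold was thus not recovered there. How the rule performs on the mice themselves, with genes at the floor and livers that stood apart, was not tested.

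The comparison and the gene lists were chosen with earlier results of these data known. Lists were written from general knowledge of mouse liver, and single placements (Serpina12 and Dntt among male-biased genes, for example) were not checked against male livers. They were described by counts and medians only, with no test. Named genes were every gene that passed, the members of each list at an unadjusted p under 0.05, genes whose pools did not overlap, those the study followed in liver RNA and those with the smallest p for differences within or between pools. Some genes that this rule selects are not reported here. Positions are from GENCODE M21 (GRCm38, the same assembly as mm10) by symbol, and promoters from RefSeq (GRCm38.p6). Alternatives covered thresholds, scalings, floor genes, the model, the mice used and a block on replicate number. The 6-mouse overlap, the permutation calls and the joint removal of BZA mouse 3 and CE mouse 3 were chosen after seeing the data.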

Additional observations from a re-analysis of the deposited data

Results flagged for a closer look

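In 188 pools of 6 mice, 16 had a mouse far from the other 5 by Dixon's test. Chance gives about 1 in 20 where all 6 values come from a single normal distribution. Each pool here mixes treatments, some genes had tied lowest values and many genes were chosen by their differences. That rate is therefore no measure for these pools. BZA mouse 1 lay toward the mice on estrogens alone in Gm9847 (0.24, nearest other -1.39), Cyp4a12a (0.00, nearest 1.13), Socs2 (0.34, nearest -0.99), C8a (-0.51, nearest 1.37) and C8b (-1.22, nearest 0.98). CE mouse 3 stood apart within the estrogens in Ccdc37 (0.00, nearest -1.15), Cyp2c69 (0.00, nearest 1.18), Cyp4a12b (-0.44, nearest -0.84) and Camp (6.98, nearest 2.11). BZA mouse 3 was highest in Cfd (4.59, nearest 0.53) and Cyp2b13 (0.76, nearest 0.11). The others were BZA mouse 4 in Dusp1 (-0.72, nearest 1.39), CE+BZA mouse 2 in Ddit4 (2.504, nearest 0.83), E2 mouse 5 in Slc2a10 (0.75, nearest 0.19), and CE mouse 7 in Ctrb1 (0.077) and Adamts8 (0.11), where the other 5 mice were at 0.

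CE+BZA minus CE differed from BZA minus E2, by a limma test of the difference itself, in 2 genes, and E2 and CE mice lay apart in both. In Heatr8 the change from CE to CE+BZA exceeded that from E2 to BZA by 4.49 (SE 0.71, FDR 0.0226). The E2 mice had 0.30, 0.00 and 0.65, and the CE mice -1.99, -2.10 and -2.10. The BZA mice had -1.33, -1.23 and -2.10, and the CE+BZA mice 0.21, 0.06 and 1.41. In AC123644.1 the difference was -4.86 (SE 0.87, FDR 0.043). Its E2 mice were at -0.75, -2.12 and -3.60 and its CE mice at 1.08, 1.22 and 0.47. Its BZA mice were at 0.58, 0.00 and 0.28 and its CE+BZA mice at -1.76, -1.06 and -1.66.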

How the results depend on the processing

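The 17 genes stayed called with the FDR alone, a robust prior, quantile normalization and centring, and the counts moved as follows (higher, then lower). They were 165 and 138 at an unadjusted p under 0.05 with the fold, 12 and 17 at an FDR under 0.10, 13 and 18 with quantile normalization, 3 and 6 without shrinkage, 6 and 7 in the 12 treated mice, 0 and 1 with CE+BZA against CE, 0 and 3 without CE+BZA, and 0 and 3 without CE. Among the alternatives chosen after seeing the data, they were 19 and 14 for pools not overlapping, 124 and 100 by the exact permutation test with the fold, and 2 and 4 without BZA mouse 3 and CE mouse 3. Leaving out each mouse gave 3 to 22 higher and 4 to 15 lower, 2 to 17 for BZA minus E2, 0 to 6 for BZA minus CE, 1 to 7 for CE+BZA minus E2, 0 to 2 for CE+BZA minus CE, 0 to 1 for CE minus E2, 0 to 2 for CE+BZA minus BZA and 0 to 4 for the difference of the differences. Quantile normalization gave 14, 10, 9 and 4 genes for BZA minus E2, CE+BZA minus E2, CE+BZA minus CE and the difference of the differences, and centring gave 0 for CE+BZA minus CE. The median of all genes was 0.0897, 0.0245 with quantile normalization and 0.102 with centring.

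Replicate numbers recur between groups of different animals and did not pair the mice: the 13 same-number pairs correlated at -0.0486 to 0.098. A fixed block left 4 residual degrees of freedom and 1 gene higher and 1 lower, with 1 gene for BZA minus E2, 1 for CE+BZA minus E2, and 0 for CE+BZA minus CE, CE minus E2 and the difference of the differences. A random block gave 6 and 10, and 0 for CE+BZA minus CE.

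Single genes reversed in 20 cases, none of them among the 17. CE+BZA against CE gave 0.96 for Cml3, -0.75 for Gpnmb, -0.24 for Pparg and -2.41 for AC123644.1, and leaving out CE+BZA gave 0.27 for Cdx4, -0.61 for Gm17705 and -0.68 for Heatr8, which was -0.81 without CE. The Pparg log2 difference, near 0 throughout, was -0.0438 to 0.171 without single mice and -0.0780 without both mice above, and the AC123644.1 log2 difference was -0.346 to 0.365 without single mice, -0.17 without both, -0.14 with quantile normalization and -0.48 with the fixed block. Over the reported genes, 2792 values kept direction and side of the threshold, 140 gained and 130 lost the threshold. The causes were not tested.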
